A study of Salmo salar with 8 samples.

Results

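The genes described here are those that the study listed under the Gene Ontology term vacuolar lumen, the interior space of lysosomes and related organelles, in cultured head kidney leukocytes (HKLs) of Atlantic salmon. The list held 40 genes, and the 5 with a symbol of CTS plus a letter, the cathepsins, were set aside, which left 35 members. Their probes were found by symbol in the study's annotated list of probes that differed between the days. That list held 2139 rows under 1449 gene symbols. The search gave 56 probes of 33 members, and no row carried the symbol HSP90AA1 or LIPA. All 56 probes were among the 38695 probes tested here. The members were therefore chosen by the contrast of Day 5 against Day 1 itself, at a false discovery rate of 0.05 and, for the term, a change of more than 2-fold. For this reason their changes are a description, and where a member probe is said to pass the threshold of the fit across all probes, this is no independent test of it. On the processed values that the authors deposited, the members closest to that fold were VCP, HEXA and PLBD2, whose largest probe differed by 1.02, 1.05 and 1.07 on the log2 scale. Genes of the term that missed the threshold are not named in the sources used here.

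The head kidney is the blood-forming organ of fish, and its leukocytes were collected on a density gradient and selected by adherence to the culture plate. Cells of 4 Atlantic salmon (Fish 1 to Fish 4) were lysed after 24 h (Day 1) and 120 h (Day 5) in culture, which gave 4 samples for each day, paired by fish. Each sample was labelled with Cy5 and hybridised on its own 44K salmonid oligonucleotide array against a Cy3-labelled pool of all samples, and the dyes were not swapped. Every value below is a log2 ratio of Cy5 over Cy3 after background correction and loess normalisation, and a change is Day 5 minus Day 1 within a fish, in which the pool cancels. The cells are a mixture, from which non-adherent cells were rinsed off just before the Day 1 sample and at intervals after it. In such bulk samples, fewer cells of a type and less RNA per cell cannot be told apart.

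Lysosomes are acidic organelles in which hydrolases break down sugars, proteins, lipids and nucleic acids that reach them by phagocytosis, endocytosis or autophagy. Glycosidases, proteases and lipid enzymes work in the lumen, carriers such as NPC2 move their products on, and receptors such as SCARB2 bring enzymes in. Macrophages are rich in these organelles, and inherited loss of several of the enzymes causes storage disease in humans. The term also holds proteins of secretory granules and vesicles whose main known work lies elsewhere, such as the annexin ANXA2.

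On the 8 arrays the median Cy5 signal was 176 to 594. A limit was set by the negative control spots (their mean plus 2 SD), and 40.4% to 51.3% of the probes exceeded it. Among the members, 54 of 56 probes exceeded it on at least 1 array of each day. Both ends of both ranges were arrays of Fish 1, with 176 and 51.3% at Day 1 and 594 and 40.4% at Day 5. The limits of these arrays, 159 and 693, were also the lowest and the highest. Their median Cy3 signals were 236 and 90.8. The part of these differences in the changes of Fish 1 was not tested. The arrays lay on 3 slides, and only Fish 1 and Fish 3 had both days on the same slide. Markers of cell types that were among the study's named genes were read beside the members. All 4 macrophage genes found (CSF1R, MRC1, AIF1 and TYROBP, of 11 looked for) were higher at Day 5, with a mean log2 ratio of -1.62 to -0.81 in the Day 1 samples and 0.42 to 1.02 in the Day 5 samples. The genes found for B cells (5 of 6), T and NK cells (6 of 6), erythroid cells (5 of 5), neutrophils (3 of 4) and thrombocytes (1 of 1) were lower at Day 5. The erythroid mean was 0.02 to 1.31 in the Day 1 samples and -1.79 to -1.26 in the Day 5 samples. These marker genes, too, are known by name only because they differed between the days, and their part in the values of the members was not tested.

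Of the 33 measured members, 29 were higher at Day 5 and 4 were lower, with ACP2 counted among the higher although its probes disagreed. The 20 measured hydrolases all had a mean above 0, ACP2 with the same limit, and their median change was 1.19, with 17 of them higher in all 4 fish. Counted as hydrolases were the glycosidases, proteases, lipid and phosphate enzymes and ADA2, but not ARG1, although it also hydrolyses its substrate. The median change over the members was 1.20 on the log2 scale, or 2.29-fold, beside -0.004 over all tested probes and 0.60 over the 1414 named genes with a tested probe. In the fit across all probes (limma, adjusted p under 0.05), 21 of the 56 member probes passed, 17 of them higher and 4 lower at Day 5, and they came from 12 genes. Of all tested probes 2.03% passed (784 probes), 1.09% higher and 0.936% lower. With the arrays centred on their median in place of loess, the 784 calls, of which 422 were higher and 362 lower, became 905, of which 338 were higher and 567 lower. The rule used this contrast, so nothing is read from the difference between these shares. The number of calls depended on the processing. With a smaller normexp offset of 10 no probe passed in limma (4463 probes, 45 of them members, had an unadjusted p under 0.05), and with slide as a fixed block, a setting chosen after seeing the data, 20 probes passed, 2 of them members. Under both settings 29 of 33 members were higher at Day 5. The choice of members largely fixes that a member keeps its direction between settings, but not how many are higher. Of the 1414 named genes, which come from the same list of differing probes, 54.6% were higher with the reported processing.

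**Figure D1:**
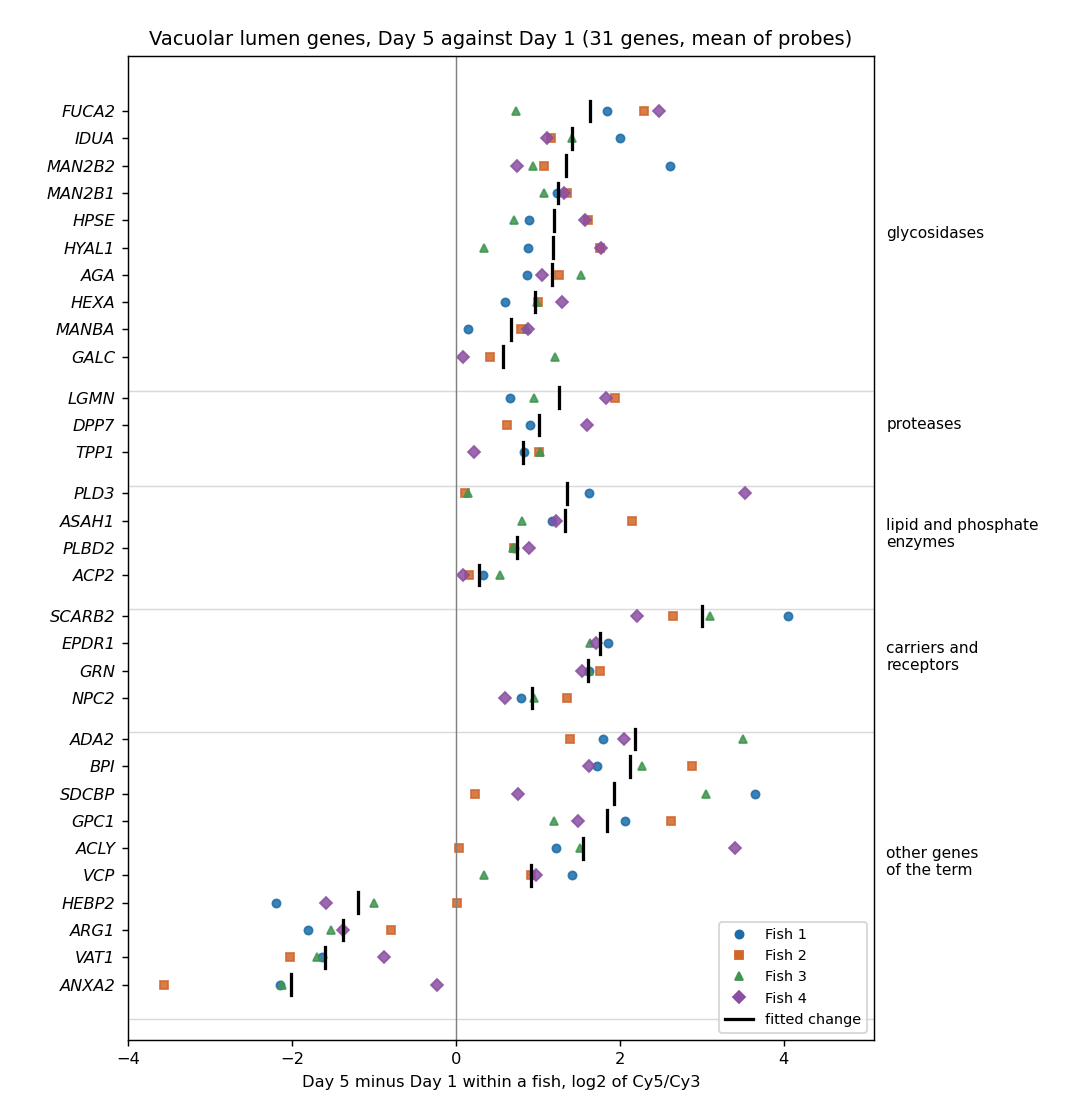
Change from Day 1 to Day 5 of 31 measured genes on the log2 scale, as the mean of each gene's probes, with 1 point per fish and a black bar at the fitted change. All 18 hydrolases plotted lie above 0 (ACP2 only as the mean of probes that disagree). So do all 4 genes of the group of carriers, receptors and other lysosomal proteins. ANXA2, VAT1, ARG1 and HEBP2 lie below 0, except HEBP2 in Fish 2, at 0.02.

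All 12 genes grouped here as glycosidases, the enzymes that cut sugar chains, were higher at Day 5, with a median change of 1.19. AGA, strictly an amidase, is counted among them. They had 15 probes, of which 3 passed the threshold, beside 2.03% of all tested probes, a contrast that the choice of members fixes. The glycosidases named below lay between 0.57 and 1.63.

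FUCA2, an alpha-L-fucosidase, had a mean change of 1.63 over 2 probes. Probe C085R017 read -2.01, -0.50, -0.89 and -1.35 at Day 1, and 1.11, 2.24, 0.43 and 1.13 at Day 5. The days did not overlap, and Fish 3 was the lowest of the Day 5 samples. Its fitted change was 2.41 (SE 0.35), but only 1 of its 4 Day 1 arrays exceeded the negative control limit. The other probe, C028R129, read -1.13, -0.69 and -0.15 in Fish 1, 2 and 3 at Day 1, and -0.56, 1.16, -0.01 and 0.57 at Day 5. On this probe the days overlapped and the fitted change was 0.85 (SE 0.41), so the 2 probes of FUCA2 differed by more than either standard error. With only spots above the negative controls in both channels, the change of FUCA2 was 0.89.

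At the low end of the glycosidases stood GALC, which removes galactose from galactosylceramide, and MANBA, the beta-mannosidase. GALC read -0.57, 0.22, -0.63 and -0.10 at Day 1, and 0.64, 0.58 and -0.01 in Fish 2, 3 and 4 at Day 5. Its days overlapped, 2 of its Day 1 arrays exceeded the negative control limit, and the change was 0.57 (SE 0.38). Without Fish 3 it was 0.25, without Fish 4 it was 0.81, and with no filter on low spots it was 0.18. MANBA read -0.65, -0.57, -0.36 and -0.70 at Day 1, and -0.51, 0.23, 0.50 and 0.17 at Day 5. Only 2 of its Day 1 arrays exceeded the negative control limit, and its Day 5 array of Fish 1 did not. The Day 5 sample of Fish 1 lay among the Day 1 samples, and the other 3 lay above them, for a change of 0.67 (SE 0.30). In order of their change, IDUA (alpha-L-iduronidase, 1.42), MAN2B2 and MAN2B1 (alpha-mannosidases, 1.34 and 1.24), HPSE (heparanase, 1.20), HYAL1 (hyaluronidase, 1.19), AGA (aspartylglucosaminidase, 1.18) and HEXA (an enzyme of ganglioside breakdown, 0.97) lay between these. Among them MAN2B1 varied least between fish, with changes of 1.23, 1.36, 1.07 and 1.32, and MAN2B2 most, with changes of 2.61, 1.07, 0.94 and 0.74. The days overlapped on the MAN2B1 probe. Only 2 of its Day 1 arrays exceeded the negative control limit, as on the probes of IDUA and HYAL1. The Day 1 Cy5 signal of MAN2B2 in Fish 1, 159.3, lay at the limit of 159.2. Without Fish 1 the change of MAN2B2 was 0.92.

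**Figure D2:**
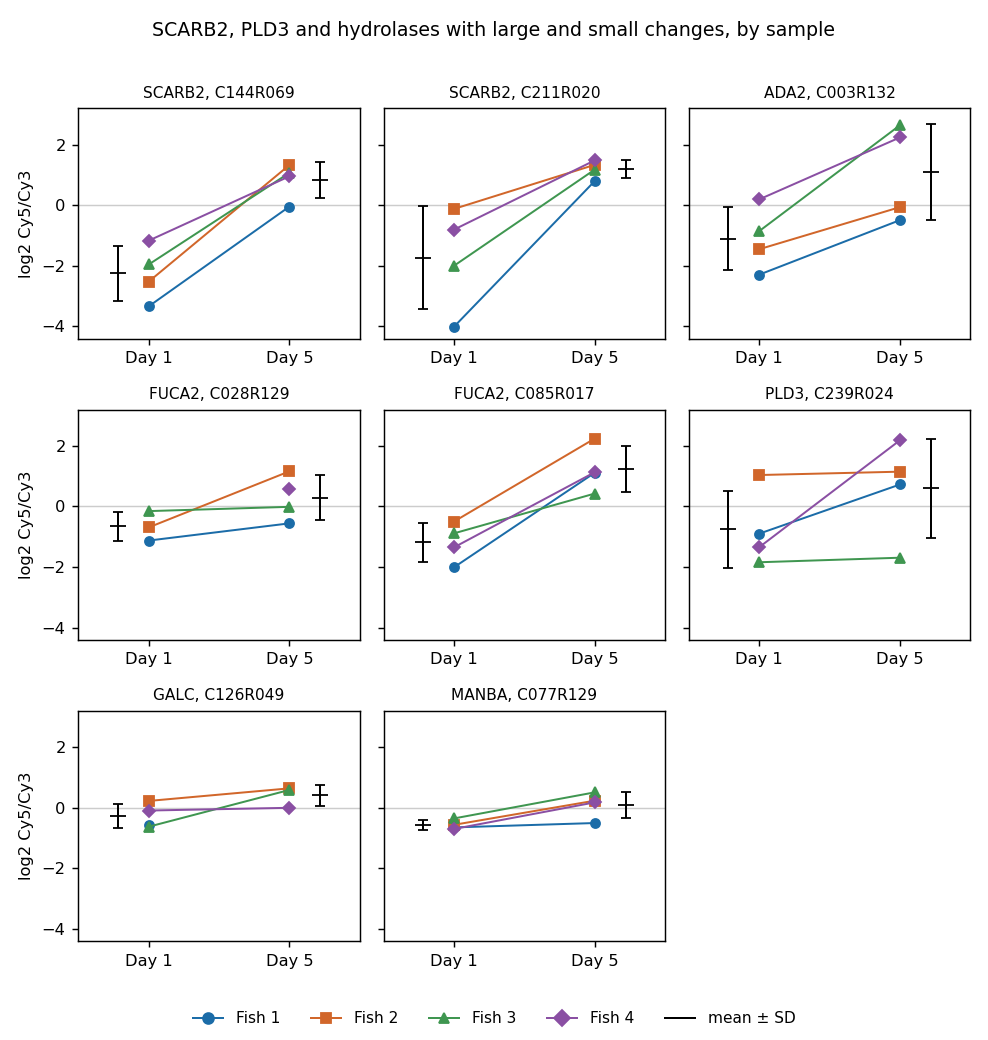
Log2 ratio of Cy5 over Cy3 by day for the probes of SCARB2 and of the hydrolases ADA2, FUCA2, PLD3, GALC and MANBA. Lines join the samples of a fish, and bars show the mean ± SD of the samples of a day (n = 3 or 4). SCARB2 goes from a mean of -2.24 to 0.83 and from -1.73 to 1.20 on its 2 probes, while GALC goes from -0.27 to 0.40.

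All 3 proteases were higher at Day 5. LGMN, the asparaginyl endopeptidase legumain, which activates other lysosomal proteases, had the largest change, 1.25 as the mean of 3 probes. Probe C113R125 read -0.64, -0.78, -1.20 and -1.65 at Day 1, and 0.04, 1.14, -0.25 and 0.91 at Day 5. Probe C128R095 read -1.17, -0.67, -1.90 and -1.49 at Day 1, and -0.46, 1.28, -0.48 and 0.05 at Day 5. Probe C144R155 read -0.81, -0.44, -0.54 and -0.96 at Day 1, and -0.22, -0.05 and 0.42 in Fish 1, 3 and 4 at Day 5. On all 3 probes the days did not overlap. Fish 2 and Fish 4 had the larger differences, and the means over the probes were 0.66, 1.93, 0.95 and 1.83 in Fish 1 to Fish 4. The mean of Fish 2 leaves out C144R155, the probe with the smallest fitted change, so the order of Fish 2 and Fish 4 cannot be read from these means. The fitted changes of the 3 probes were 1.53 (SE 0.36), 1.41 (SE 0.32) and 0.83 (SE 0.37), and only the second passed the threshold. In Fish 1 and Fish 3 alone the change of LGMN was 0.81. DPP7, a dipeptidyl peptidase, had values of 1.15 and 0.87 on its 2 probes, each measured on both days in only 2 fish. TPP1, the tripeptidyl peptidase, had 0.79 on C096R059 and 0.84 on C115R097, measured on both days in 2 and 3 fish. None of these 4 probes passed. On C096R059 the days overlapped, and only 1 Day 1 array and 2 Day 5 arrays exceeded the negative control limit.

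The 4 lipid and phosphate enzymes with a probe had a median change of 1.04. None of their 6 probes passed the threshold, beside 2.03% of all tested probes. PLD3, a member of the phospholipase D family that acts as an exonuclease on nucleic acids, had the highest mean and was also the least even. It read -0.90, 1.04, -1.84 and -1.34 at Day 1, and 0.73, 1.15, -1.69 and 2.19 at Day 5. Its probe exceeded the negative control limit on 2 Day 1 and 3 Day 5 arrays, and not in Fish 3 or in the Day 1 sample of Fish 4. Fish 4 was higher by 3.53 and Fish 1 by 1.62, while Fish 2 and Fish 3 differed by only 0.11 and 0.15, so the days overlapped. Its fitted change was 1.35 (SE 0.49), and without Fish 4 it was 0.63. ASAH1, the acid ceramidase, had a fitted value of 1.34, with differences of 1.17, 2.15, 0.80 and 1.22 in the 4 fish. PLBD2, a phospholipase B-like protein, had a lower value, 0.75, that varied little between fish, with differences of 0.71, 0.71, 0.70 and 0.89. ACP2, lysosomal acid phosphatase, had the smallest mean of all hydrolases, 0.28, and its 3 probes, which went both ways, are given below with the genes that were lower.

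Carriers, receptors and other lysosomal proteins had the highest median of the role groups, 1.68, with 4 of 4 genes higher. Of their 13 probes 9 passed the threshold, beside 2.03% of all tested probes, a contrast that the choice of members fixes. Of these 9, 4 were probes of GRN and 3 of EPDR1, and the probes within each of these genes are not all independent. SCARB2, a lysosomal membrane receptor that takes part in enzyme transport to the lysosome, had the largest change of all members, 3.00 as the mean of 2 probes, or 8.02-fold. Probe C144R069 read -3.34, -2.52, -1.95 and -1.17 at Day 1, and -0.04, 1.33, 1.07 and 0.96 at Day 5. Probe C211R020 read -4.01, -0.12, -2.00 and -0.80 at Day 1, and 0.80, 1.34, 1.18 and 1.48 at Day 5. Every Day 5 sample lay above every Day 1 sample on both probes, and Fish 1 was the lowest at Day 1 on both. On C211R020 its Cy5 signal was 8.25, far under the negative control limit of 159 on that array, and only 1 of the 4 Day 1 arrays exceeded the limit. Without Fish 1 the change of SCARB2 was 2.65. Probe C144R069 exceeded the limit on all 8 arrays, with Cy5 signals of 1061 to 5581 at Day 1 and 8333 to 32550 at Day 5. The contigs on which both probes were designed carried the same annotation, lysosome membrane protein 2-like (LOC106568513).

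EPDR1 is a member of the ependymin-related family. Its 4 probes had values of 1.61 to 1.88, and 3 passed the threshold. The Day 5 spot of Fish 2 had a quality flag on all 4, so these values rest on the other fish, and that of C005R058, the highest, on Fish 1 and Fish 4 alone. The means over the probes were 1.85, 1.64 and 1.70 in Fish 1, 3 and 4. The contigs given for 3 of the probes began with the same bases and were annotated as ependymin-like (LOC106577537), so these probes are not independent measurements. NPC2, the soluble sterol carrier, had a value of 0.93 (SE 0.30), which did not pass the threshold, with differences of 0.80, 1.35, 0.95 and 0.60. Its days only just did not overlap, with Fish 4 at -0.226 at Day 1 and Fish 1 at -0.216 at Day 5. The Cy5 signal of that Day 5 array, 678, lay under its negative control limit of 693.

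GRN encodes progranulin, a secreted and lysosomal protein that is cleaved into cysteine-rich granulin peptides, and granulin was described in goldfish as a growth factor of macrophages. It had the most probes of any member, 6, and the contigs behind them named 2 loci. These contigs had only 4 different starts, so the 6 probes are not all independent measurements. Those of 5 probes were annotated as granulins-like LOC106601556, named grna in the RefSeq gene table of assembly Ssal_v3.1, and that of C095R002 as granulins-like LOC106588950. The following sequences are shown because they tell these loci apart. Each is the first 240 bases of the open reading frame found near the start of the contig, 5′ to 3′, as the study's annotation gives the contig, and the codons TGT and TGC, which encode cysteine, are in capitals. They are the contigs from which probes were made, not the probes.
GRN C057R106: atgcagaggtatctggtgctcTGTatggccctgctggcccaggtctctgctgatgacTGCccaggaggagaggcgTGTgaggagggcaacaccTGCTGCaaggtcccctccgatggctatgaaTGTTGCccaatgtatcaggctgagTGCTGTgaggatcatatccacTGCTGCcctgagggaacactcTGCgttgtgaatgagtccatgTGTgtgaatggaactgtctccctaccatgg
GRN C066R088: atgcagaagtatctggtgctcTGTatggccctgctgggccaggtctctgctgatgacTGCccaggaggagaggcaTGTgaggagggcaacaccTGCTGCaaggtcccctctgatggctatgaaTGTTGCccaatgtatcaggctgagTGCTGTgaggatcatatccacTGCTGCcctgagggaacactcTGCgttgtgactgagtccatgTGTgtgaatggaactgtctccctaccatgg
GRN C095R002: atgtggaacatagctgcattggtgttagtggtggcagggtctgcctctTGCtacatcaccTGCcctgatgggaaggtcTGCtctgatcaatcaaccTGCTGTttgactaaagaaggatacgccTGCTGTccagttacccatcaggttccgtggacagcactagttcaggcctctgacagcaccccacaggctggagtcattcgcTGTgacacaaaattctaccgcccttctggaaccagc
The first 2, from the locus grna, differed at 5 of 240 bases and each held 13 cysteine codons among 80. The contig of C095R002 held 8. Contigs as alike as the first 2 may come from alleles or from duplicated genes, and signal on their probes cannot be assigned to 1 of them with certainty.

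All 5 GRN probes of the locus grna were higher at Day 5 in 4 of 4 fish. Probe C057R106 read -1.49, -1.30, -1.22 and -0.52 at Day 1, and 0.64, 0.67, 0.86 and 0.66 at Day 5. Probe C066R088 read -1.21, -1.06, -1.70 and -1.08 at Day 1, and 0.09, 0.60, 0.38 and 0.50 at Day 5. Probe C184R095 read -0.90, -1.02, -0.86 and -1.50 at Day 1, and 1.02, 0.55, 0.68 and 0.60 at Day 5. On these probes no Day 1 sample reached -0.50 and all Day 5 samples were above 0. Probe C215R111 read -1.34, -1.18, -1.51 and -1.36 at Day 1, and 0.10, 0.95, 0.13 and 0.86 at Day 5. Probe C124R055 read -1.05, -1.37, -1.02 and -0.73 at Day 1, and -0.05, 0.10, -0.28 and 0.55 at Day 5. On both the days did not overlap, although on C124R055 the Day 5 samples of Fish 1 and Fish 3 stayed below 0. The fitted changes of these 5 probes were 1.84 (SE 0.31), 1.66 (SE 0.30), 1.78 (SE 0.30), 1.86 (SE 0.31) and 1.12 (SE 0.30), and the first 4 passed the threshold.

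The probe of the other granulin locus, C095R002, read -0.95, -0.31, -0.15 and -0.52 at Day 1, and 0.99 and 0.36 in Fish 1 and 4 at Day 5. Its days did not overlap, but the Day 5 spots of Fish 2 and Fish 3 had a quality flag, and the fitted change of 1.41 (SE 0.48) rested on differences of 1.94 and 0.88 in Fish 1 and Fish 4. Over all 6 probes the change of GRN was 1.61, or 3.06-fold. The means in Fish 1 to Fish 4, without C095R002 in Fish 2 and Fish 3, were 1.62, 1.76, 1.62 and 1.54. Their SD was 0.09, as was that of PLBD2, which had 1 probe where GRN is a mean over several.

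**Figure D3:**
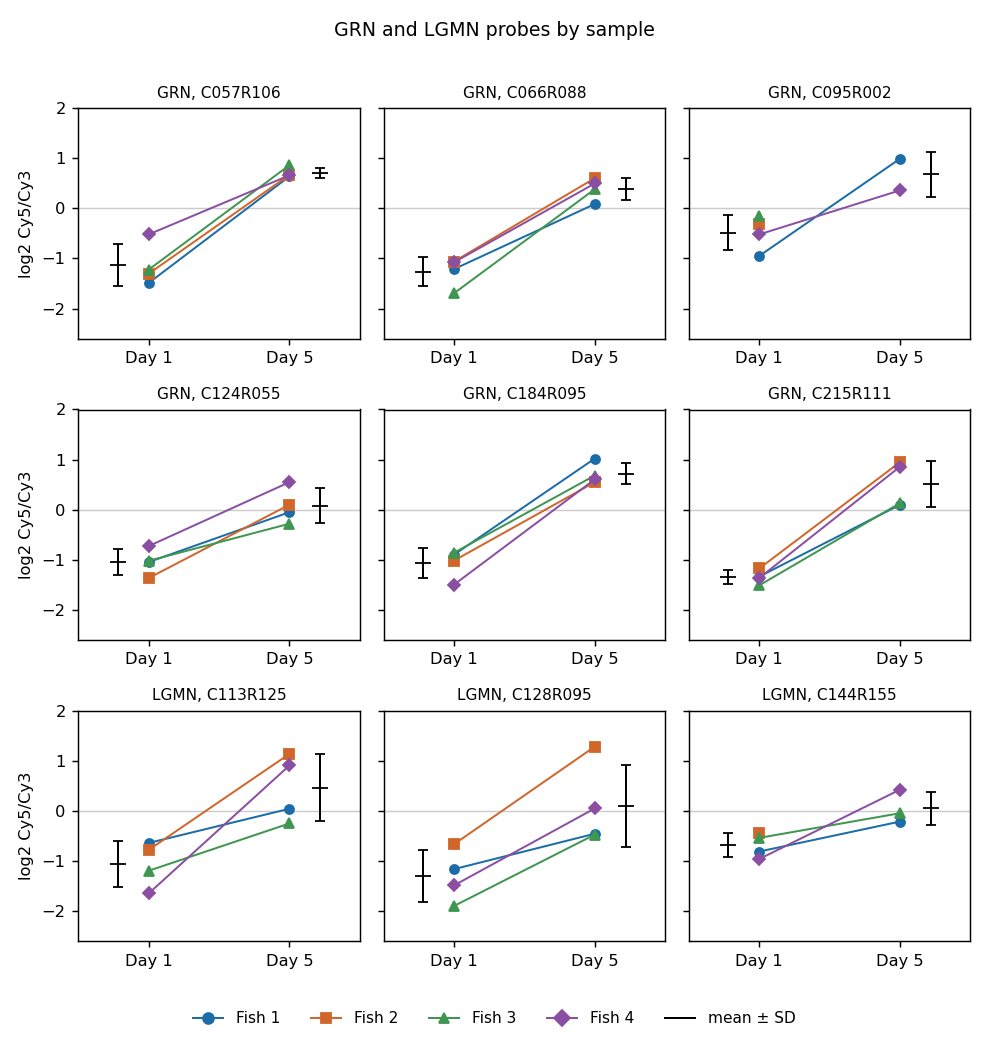
Log2 ratio of Cy5 over Cy3 by day for the 6 probes of GRN and the 3 probes of LGMN. Lines join the samples of a fish, and bars show the mean ± SD of the samples of a day (n = 2 to 4). The Day 5 samples lie above all Day 1 samples on each of the 9 probes.

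The other genes of the term were less uniform, with 6 of 10 higher and 4 lower. ADA2, an extracellular adenosine deaminase that macrophages secrete, had the largest change among them and among the hydrolases. It read -2.29, -1.45, -0.85 and 0.20 at Day 1, and -0.49, -0.06, 2.65 and 2.24 at Day 5. Each fish was higher at Day 5, Fish 3 by the most, but Fish 1 and Fish 2 lay so low on both days that the days overlapped. The fitted change was 2.18 (SE 0.37). BPI, which binds bacterial lipopolysaccharide, changed by 2.35 and 1.90 on its 2 probes, whose contigs began with the same bases. Probe C247R044 did not exceed the negative control limit on any Day 1 array, so its change is a bound of at least 2.14-fold.

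GPC1, the heparan sulphate proteoglycan glypican-1, changed by 1.84, with differences of 2.06, 2.62, 1.20 and 1.49. Its Cy5 signal in Fish 2 at Day 1, 535.9, lay under the negative control limit of 554.8 on that array. With only spots above the negative controls in both channels, the change of GPC1 was 1.61. VCP, an ATPase that extracts proteins from membranes, had a value of 0.91 that did not pass the threshold. SDCBP, the adaptor syntenin-1, and ACLY, which makes cytosolic acetyl-CoA, had means of 1.92 and 1.54 but large spread between fish. The differences of SDCBP were 3.65, 0.23, 3.06 and 0.76, and those of ACLY were 1.22, 0.04, 1.52 and 3.40. Without Fish 1 the change of SDCBP was 1.35, and without Fish 4 that of ACLY was 0.93.

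ANXA2, ARG1, HEBP2 and VAT1 were lower at Day 5, and none of them is a lysosomal hydrolase. ANXA2, annexin A2, binds membranes in the presence of calcium and had the lowest change, -2.01 (SE 0.45). It read 0.81, 1.26, 0.63 and 0.14 at Day 1, and -1.33, -2.30, -1.50 and -0.08 at Day 5. The days did not overlap, but Fish 4 differed by only -0.23 while Fish 2 differed by -3.56. Without Fish 4 the change was -2.61, and without Fish 2 it was -1.50.

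VAT1, a vesicle amine transport protein of the quinone oxidoreductase family, had 3 probes that were lower and 1 that was higher. Probe C077R152 read 0.39, 0.37, 0.83 and 0.34 at Day 1, and -1.86, -2.45, -2.13 and -1.59 at Day 5. Probe C204R077 read 1.35, 0.53, 0.22 and 0.44 at Day 1, and -0.72, -1.84, -2.17 and -1.16 at Day 5. Probe C034R169 read 1.19, 0.93, 0.16 and 0.22 at Day 1, and -2.16, -1.83 and -0.82 in Fish 1, 2 and 4 at Day 5. All 3 passed the threshold, with changes of -2.49 (SE 0.32), -2.11 (SE 0.31) and -2.38 (SE 0.46), and on each the days did not overlap. C034R169 did not exceed the negative control limit on any Day 5 array, and as a bound it was at least 3.00-fold lower. The remaining probe, C156R037, read -1.33, 0.12, -0.25 and -0.41 at Day 1, and -0.21, -0.02, 0.03 and 0.63 at Day 5. On it the days overlapped, Fish 2 was lower by 0.13 on the log2 scale, and the fitted change was 0.57 (SE 0.33), so VAT1 as the mean of 4 probes, -1.60, joins probes that disagree.

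ARG1, the arginase that turns arginine into ornithine and urea and a marker of alternatively activated macrophages in mice, was lower on both probes. Probe C241R142 read 1.21, 0.16, -0.37 and -0.42 at Day 1, and -0.64, -1.03, -1.82 and -1.19 at Day 5. Probe C250R106 read 1.61, -0.17, 0.40 and 0.52 at Day 1, and -0.15, -0.57, -1.21 and -1.47 at Day 5. Fish 1 was the highest at Day 1 on both. All 4 fish were lower at Day 5 on both probes, the days overlapped on C250R106 and not on C241R142, and only 1 Day 5 array exceeded the negative control limit on C241R142. The changes were -1.31 (SE 0.31) and -1.44 (SE 0.34), and neither passed the threshold. HEBP2, heme-binding protein 2, read 1.04, 0.26, 0.43 and 0.79 at Day 1, and -1.16, 0.27, -0.57 and -0.79 at Day 5. Fish 2 differed by 0.02, while Fish 1, Fish 3 and Fish 4 differed by -2.20, -0.997 and -1.58, and the days overlapped. The fitted change was -1.19 (SE 0.37), which did not pass the threshold. The Cy5 signal of Fish 1 at Day 5, 672.5, lay under the negative control limit of 692.6 on that array. Without Fish 1 the change of HEBP2 was -0.85. It was also -0.85 with only spots above the negative controls in both channels.

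Among the genes counted here as hydrolases, which leave out ARG1, ACP2 was the only one with a lower probe. Probe C042R109 read 0.33, 0.55, 0.62 and 0.10 at Day 1, and -1.19, -0.14, -0.57 and -1.45 at Day 5. It was lower in 4 of 4 fish with no overlap between the days. Probe C045R112 read -1.19, -0.32, -0.72 and -0.98 at Day 1, and 0.09, 0.78, 0.28 and -0.36 at Day 5. Probe C128R022 read -1.21, -0.01, -0.79 and -0.62 at Day 1, and 0.02, 0.07, 1.01 and 0.55 at Day 5. Both were higher in 4 of 4 fish. The changes were -1.24 (SE 0.31), 1.00 (SE 0.30) and 1.07 (SE 0.34). Their mean of 0.28 became 0.003 with the arrays centred on their median and -1.24 when the brightest probe alone was taken, so no direction is given for ACP2. With it and VAT1, 2 of the 13 genes with more than 1 probe had probes that went both ways, and over these 13 genes the median distance between the lowest and the highest probe was 0.40.

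**Figure D4:**
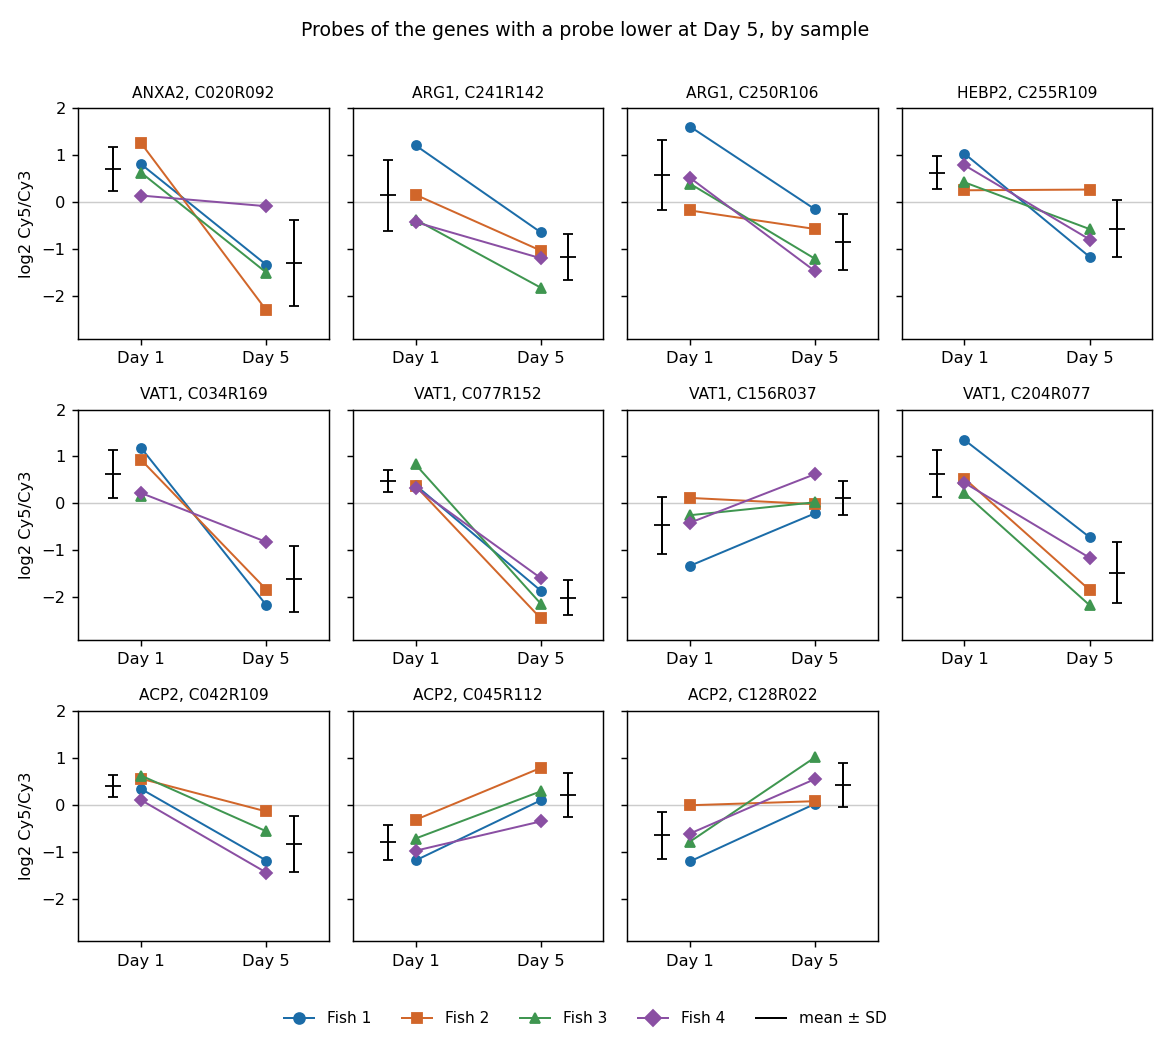
Log2 ratio of Cy5 over Cy3 by day for all probes of ANXA2, ARG1, HEBP2, VAT1 and ACP2. Lines join the samples of a fish, and bars show the mean ± SD of the samples of a day (n = 3 or 4). On 8 of the 11 probes the mean is lower at Day 5, and on VAT1 C156R037, ACP2 C045R112 and ACP2 C128R022 it is higher.

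The median change over the members was 1.04, 1.11, 0.95 and 1.17 in Fish 1 to Fish 4, and 25 of the 33 genes were higher in all 4 fish. Of the 56 probes, 47 were higher and 7 lower in every fish with both days. The days did not overlap on 45 member probes (39 of them higher at Day 5), beside 11.3% of all tested probes, a contrast that the choice of members fixes. Fish 1 was the lowest Day 1 sample on 18 of 41 higher probes with all Day 1 values, Fish 4 on 12, Fish 3 on 8 and Fish 2 on 3. Over the 42 member probes with values on all arrays, the median SD between fish was 0.36 at Day 1 and 0.48 at Day 5, beside 0.41 and 0.42 over all such probes.

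Slide and day were partly confounded, so the changes were also read within slides. Over the 30 genes with values on both days in Fish 1 and Fish 3, the median change was 0.91 within slides. Of these genes 26 were higher, among them all 17 hydrolases measured there. In Fish 2 and Fish 4, whose samples lay on different slides, the median over the members was 1.15. Over all tested probes the medians were -0.012 within and -0.005 across slides. All 4 fish took part in the choice of the members, so neither reading is an independent check of their direction.

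Some probes carried symbols that were read here as other names of members, and they are given apart. This reading rests on the symbols alone. LAL and LICH, on 6 probes, were read as lysosomal acid lipase, the product of LIPA, which frees cholesterol from its esters. Their values were 1.33 to 1.78, and 4 passed the threshold, beside 2.03% of all tested probes. These probes, too, come from the list of probes that differed between the days. HSP90A, read as the cytosolic chaperone HSP90AA1, had 2 probes that were lower, by -1.50 and -1.36, in 4 of 4 fish. The first of them passed the threshold.

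Of 68 further genes of the lysosome that were looked for (membrane proteins, subunits of the proton pump, other hydrolases, activators and regulators), 8 were among the study's named genes, each with 1 probe. All 8 were higher at Day 5, 7 of them in every measured fish, by a median of 1.11. Over the 1414 named genes with a tested probe, 54.6% were higher and the median was 0.60. Of the 8 genes, 2 passed the threshold, beside 2.03% of all tested probes. These genes, too, were named only because they differed between the days. ATP6V0D1, a subunit of the pump that acidifies the lysosome, changed by 3.17 (SE 0.40), from a mean of -2.47 at Day 1 to 0.70 at Day 5, in 4 of 4 fish. SCPEP1, a serine carboxypeptidase, changed by 1.53 (SE 0.33). The others were GGH, CTBS, CLN8, PLA2G15, SLC17A5 and CLN3, at 0.62 to 1.22. A gene that did not differ between the days had no name here, so these 8 cannot tell how the other 60 behaved.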

How the data were processed

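RNA of adherent HKLs of 4 fish at Day 1 and Day 5 was measured on 8 two-colour arrays. The deposited scanner tables hold spot intensities that the authors extracted with ImaGene 9.0. The deposited value table holds log2 ratios that the authors made by background correction, loess and imputation of missing probes, and it served as an alternative. The study's own fold changes were not used as values. Members, gene lists and tests were chosen with earlier results of these data known.

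Here the mean intensities were corrected with normexp (offset 50) and normalised by loess within each array (R 4.3.3, limma 3.58.1). Spots with a quality flag or within 2 SD of the local background in either channel were left out, which removed 21 of 448 member spots, and probes missing on more than 2 of 8 arrays were dropped. The 38695 remaining probes were fitted in limma, blocked by fish, and p-values were adjusted by Benjamini-Hochberg (threshold 0.05). The numbers pair samples because both samples of a number came from 1 fish. The deviations of same-numbered samples from the day means correlated at -0.05, -0.08, 0.08 and 0.03 over 26008 probes. A gene is the mean of its tested probes. For a probe under the negative control limit on every array of a day, a lower bound of the fold was set from Aquantile-normalised channels, which is open to dye bias because dyes were not swapped. The number of arrays limits the precision.

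Members were named by role, and 2 are counted in the totals but not reported here by name. Values in every sample were given for GRN, LGMN, genes with a lower probe, the 3 largest and 3 smallest hydrolases (as far as reported) and the largest gene of each other role. Probe names came from the study's list of differing probes, so probes without a difference are unnamed here. One animal that the study removed after hybridisation was not analysed here. Alternatives changed the background correction, normalisation, spot filters, values, block, slide and test, or left out a fish.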

Additional observations from a re-analysis of the deposited data

Results flagged for a closer look

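Among 94 sets of 4 samples (a member probe on 1 day), 4 had a sample far from the other 3, and chance alone marks about 1 in 20 such sets. On GRN probe C057R106 the Day 5 sample of Fish 3 was at 0.86 on the log2 ratio scale and the others at 0.64 to 0.67, a gap that is small beside the change between the days. On BPI probe C247R044 the Day 1 sample of Fish 4 was at -0.90 and the others at -1.63 to -1.51, and no Day 1 array exceeded the negative control limit there. On the SDCBP probe the Day 1 sample of Fish 1 was at -2.71 and the others at -0.55 to -0.32, with a Cy5 signal of 68.8 against a limit of 159. On VAT1 probe C077R152 the Day 1 sample of Fish 3 was at 0.83 and the others at 0.34 to 0.39.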

How the results depend on the processing

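The counts of calls depended on the processing more than the direction of the members did. The members were chosen because they differed between the days on these same arrays. Their direction under the alternatives was largely fixed by that choice and is no independent check. In the order all probes, member probes and other lysosome genes, the 784, 21 and 2 calls became 0, 0 and 0 in limma with plain background subtraction (4217 probes and 46 members at an unadjusted p under 0.05) and with a normexp offset of 10 (4463 and 45), and 2, 0 and 0 with the median spot signal (4042 and 41), while paired SAM on the scanner values, over 26008 probes, called 1276, 30 and 2. They were 905, 18 and 1 with median centring (37.35% of the calls higher, against 53.83%), 479, 17 and 1 with quality-flagged spots kept, 1068, 33 and 2 on the authors' processed ratios, and 2078, 54 and 8 with paired SAM on those ratios. Without a filter on low spots there were 673, 19 and 2 calls, and with only spots above the negative controls 853, 26 and 3. Slide as a random block beside the fish block gave 2676, 40 and 5. Without the pairing (no replicate block) there were 918, 23 and 2 calls, and the medians over members and hydrolases were 1.23 and 1.21, so the block moved no count by over 1.5 times. Leaving out 1 fish gave 315 to 721, 10 to 17 and 1 to 3 calls, with 370 and 10 without Fish 3, 315 and 12 without Fish 4, and 1 other gene without Fish 2, Fish 3 or Fish 4.

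The alternatives for slide that follow were chosen after seeing the data. Slide as a fixed block gave 20, 2 and 0 calls (3856 probes and 37 members at an unadjusted p under 0.05), and Fish 1 and Fish 3 alone, each on 1 slide, gave 24, 3 and 0. The median changes over members and hydrolases, 1.20 and 1.19 as reported, were 0.83 and 0.83 with median centring, 1.56 and 1.502 on the authors' ratios, 1.02 and 0.98 with the random slide block, 0.99 and 0.95 with the fixed one, 0.88 and 0.81 in a fit of Fish 1 and Fish 3 alone, and 1.07 to 1.36 and 1.08 to 1.33 with 1 fish left out. The median over members was 1.34 with the median spot signal. The number of members higher at Day 5 was 29 of 33 under every alternative that measured all 33, except 28 with the brightest probe of a gene, where ACP2 was at -1.24. Of the values of single genes under the alternatives, 526 moved by less than the gene's own SD between fish, 26 by more, and the 1 of ACP2 reversed. Under the alternatives that only left out fish or the fish block, a move beyond that SD was hardly possible by arithmetic. The values from those alternatives therefore say little about stability. Under the other alternatives, a gene with a large SD between fish could shift far and still be counted among the 526. SDCBP, with an SD of 1.68, went from 1.92 to 3.35 with slide as a fixed block and was so counted. The causes were not tested.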
